A study of Mus musculus with 12 samples.

Results

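Antigen presentation by the major histocompatibility complex (MHC) was described here through 10 genes, all of which were found among the 17007 genes listed for liver and liver tumor RNA. Of these, 6 belong to the class I pathway (H2-K1, H2-D1, B2m, Tap1, Tap2 and Tapbp) and 4 to the class II pathway (Cd74, H2-Aa, H2-Ab1 and H2-Eb1). The members were taken by symbol, with earlier results of these data known, and all 10 passed the filter on low values.

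RNA sequencing covered 12 libraries in 4 groups of 3, taken here as separate mice. The normal livers came from wild-type C57BL/6 mice. The tumors of the other 3 groups were c-MYC/MCL1/Rictor KO Tsc2 KO hepatocellular carcinomas (HCCs), grown in mice given vehicle, MLN0128 or everolimus. To induce them, plasmids for the oncogenes c-MYC and MCL1 and for Cre recombinase under a CMV promoter were injected hydrodynamically into mice of C57BL/6J background with floxed Rictor and Tsc2 alleles (fl/fl for both), so that the deletions are limited to the hepatocytes that took up plasmid and the vessels, immune cells and stroma of the host keep both genes. MLN0128 blocks the mTOR kinase itself, in mTORC1 as well as mTORC2. Everolimus, a relative of rapamycin, targets mTORC1. Each drug was given by gavage at 1 mg/kg per day for 3 weeks from 6 days after injection according to the labels. The study describes the treatment of the sequenced tumors elsewhere as a matter of days, so the length of exposure behind the drug comparisons is uncertain. All 3 tumor groups share the oncogenes and both deletions, so a comparison with normal liver covers all of these at once.

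Values are FPKM, fragments per kilobase of transcript, scaled for depth by the authors. Depth was recovered as 17164125 to 25178774 reads per library, and the FPKM steps gave whole reads for 98.2% to 98.9% of values under 20 reads within a tolerance of 0.1 read. The members were covered by 71 reads (Tap2 in vehicle replicate 2) to 27079 reads (B2m in normal liver replicate 1). Tsc2 read 4.50 to 5.32 FPKM in the livers and 2.01 to 3.96 FPKM across the 9 tumors, whereas Rictor overlapped, with 1.65 to 2.57 FPKM in the livers and 1.05 to 2.21 FPKM across tumors. Hepatocyte markers were present in every library (6 of 6 genes, none at 0 throughout a group), with a summed level of 80494 to 99597 FPKM in the livers and 1814 to 7874 FPKM across tumors. MLN0128 replicates 1 and 2 held Xist RNA at 191 and 155 FPKM, while the other 10 libraries read at most 0.0699 FPKM. The paper used animals of both sexes, and this difference goes along with the drug in the MLN0128 comparisons. Its part was not tested. Results without these 2 libraries are given below for the class II genes, Tap1 and B2m and for the calls of Tapbp and the wider list. The other MLN0128 results are given with all 3 libraries only.

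MHC class I molecules are displayed by nearly all nucleated cells. A heavy chain, encoded in mouse by H2-K1 or H2-D1, pairs with beta-2 microglobulin (B2m) and is filled in the endoplasmic reticulum with peptides that the transporter Tap1/Tap2 carries in from the cytosol and that tapasin (Tapbp) helps to load. MHC class II molecules are heterodimers of an alpha chain, such as H2-Aa, and a beta chain, guarded during assembly by the invariant chain Cd74. H2-Ab1, the partner of H2-Aa, and H2-Eb1 encode beta chains. Class II is made mainly by dendritic cells, macrophages and B cells, and hepatocytes normally make little of it. In a whole tissue, fewer cells of a type and less RNA per cell cannot be told apart.

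In the GRCm38 build, 8 of the 10 members lie on chromosome 17, in the MHC. Tapbp (chr17:33915899-33929292), H2-K1 (chr17:33996017-34000347), Tap1 (chr17:34187553-34197225), Tap2 (chr17:34203527-34216321), H2-Ab1 (chr17:34257689-34269419), H2-Aa (chr17:34282744-34287823), H2-Eb1 (chr17:34305867-34316674) and H2-D1 (chr17:35262730-35267499) follow each other in this order. B2m lies apart at chr2:122147686-122153083. RefSeq promoter windows, from GRCm38.p6, were at hand for 7 members (H2-K1, H2-D1, B2m, Tap1, Tapbp, H2-Aa and H2-Eb1). In the 250 bases before the start site the letters ATTGG, read on either strand, which form the core of an inverted CCAAT box and of the Y box known from MHC promoters, were found in 7 of these 7 and in 33.8% of all 32851 windows. The letters TGACG, shared by CRE-like sites such as the X2 box, were found in 5 of 7 and in 17.8% of all windows. The letters GGATTCC, part of a kappa B-like site, were in 2 of 7 (H2-K1 and H2-D1) and in 3.17% of all. An interferon response element, searched as GAAA, any 2 bases and GAAA, was in 1 of 7 (B2m) and in 2.98% of all, and the letters TTCNNNGAA of a gamma-activated site were in 0 of 7 and in 7.02% of all. A match is a stretch of letters and not a measured site.

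These upstream stretches are shown because they belong to the members that move differently below: the class I chains, the start region that Tap1 shares with the proteasome gene Psmb9, and a class II alpha and beta chain. Capitals mark the searched letters on either strand, and overlapping matches run together in the H2-Aa window, where the palindrome around TGACG holds a match on each strand. H2-K1 has 2 windows in RefSeq, and the one of the more upstream start is shown.
B2m, chr2:122147437-122147686, plus strand: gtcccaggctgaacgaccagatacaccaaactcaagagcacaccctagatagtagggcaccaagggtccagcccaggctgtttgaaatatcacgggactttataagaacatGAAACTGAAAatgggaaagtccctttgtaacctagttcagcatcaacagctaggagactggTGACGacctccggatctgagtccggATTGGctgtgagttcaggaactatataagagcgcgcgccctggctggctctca
H2-K1, chr17:34000348-34000597, minus strand: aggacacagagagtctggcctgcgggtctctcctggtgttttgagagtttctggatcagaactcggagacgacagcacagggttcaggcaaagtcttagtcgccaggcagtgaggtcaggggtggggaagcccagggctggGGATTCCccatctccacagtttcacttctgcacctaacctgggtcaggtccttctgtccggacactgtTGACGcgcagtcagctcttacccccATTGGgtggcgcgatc
Tap1 to Psmb9, chr17:34187331-34187555, plus strand: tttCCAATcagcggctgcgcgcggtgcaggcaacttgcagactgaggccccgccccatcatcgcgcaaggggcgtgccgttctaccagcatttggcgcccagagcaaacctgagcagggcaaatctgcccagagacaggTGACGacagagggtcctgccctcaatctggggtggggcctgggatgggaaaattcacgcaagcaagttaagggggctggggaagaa
H2-Aa, chr17:34287824-34288073, minus strand: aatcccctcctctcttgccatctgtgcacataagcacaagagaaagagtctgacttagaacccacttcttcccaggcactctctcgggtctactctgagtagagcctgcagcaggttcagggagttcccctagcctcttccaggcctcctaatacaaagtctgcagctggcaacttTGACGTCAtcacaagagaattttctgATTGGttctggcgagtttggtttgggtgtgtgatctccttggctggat
H2-Eb1, chr17:34305617-34305866, plus strand: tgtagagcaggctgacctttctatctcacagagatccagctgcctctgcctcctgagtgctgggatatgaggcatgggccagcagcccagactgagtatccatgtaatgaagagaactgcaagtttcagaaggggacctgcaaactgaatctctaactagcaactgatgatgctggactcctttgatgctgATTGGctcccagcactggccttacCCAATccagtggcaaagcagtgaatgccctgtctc

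The levels of the members differed widely. Per length, B2m was the most abundant member in all 4 groups, followed by H2-K1, H2-D1 and Cd74, in this order in every library. In normal liver the mean FPKM was 2823 for B2m, 746 for H2-K1, 273 for H2-D1 and 66.8 for Cd74. The 3 class II chains and Tapbp came next and their ranges overlapped, with means of 33.9 FPKM for H2-Aa, 32.1 for H2-Eb1, 29.8 for H2-Ab1 and 28.0 for Tapbp. Tap2 and Tap1 were lowest, at 4.68 and 4.15 FPKM, and did not differ beyond their spread. The order at the lower end changed in the tumors: Tap2 ranked last in all 3 tumor groups, below Tap1 in each of the 9 libraries.

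**Figure D1:**
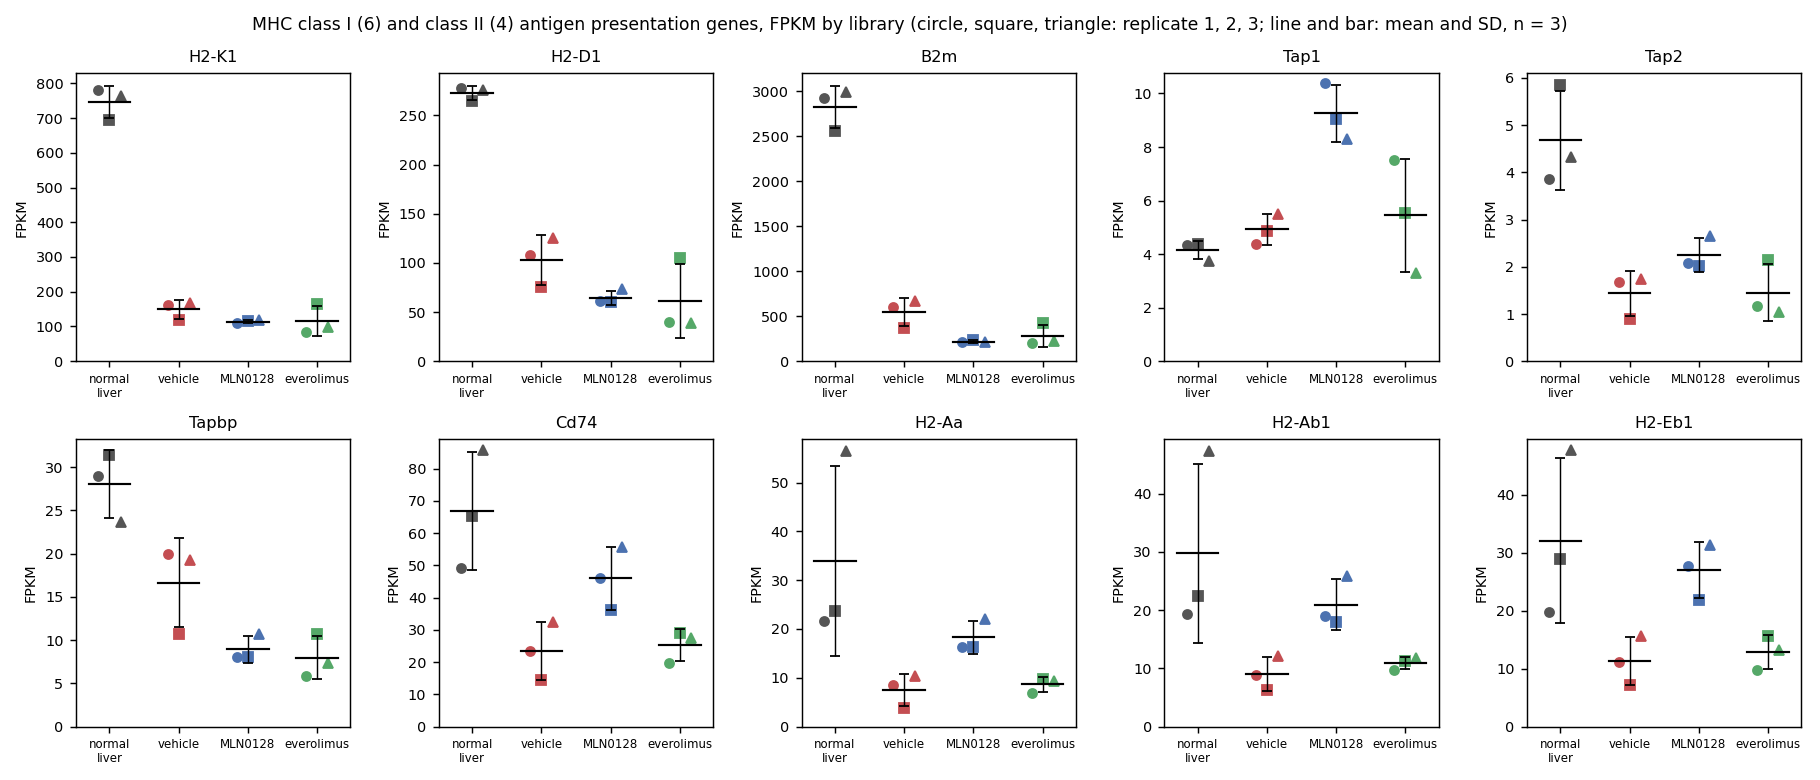
FPKM of the 10 members in each of the 12 libraries, with a linear axis from 0 in each panel; symbols are replicates 1 to 3, and lines and bars are the mean and SD (n = 3). On the deposited scaling H2-K1, H2-D1 and B2m are far lower in every tumor than in normal liver, and Tap1 is not. With rescaling to equal sums in all libraries H2-D1 did not pass the moderated test for vehicle against normal liver (-0.24, adjusted p = 0.59). The 4 class II genes are higher with MLN0128 than with vehicle in every library.

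The first comparison asked how antigen presentation genes differ between vehicle-treated tumors and normal liver. Of the 10 members, 9 were lower in the tumors by limma's moderated test, and 8 passed the stricter treat test against a fold change of 1.5 (adjusted p under 0.05 in both). Over all 14397 genes tested, 33.0% were lower by the moderated test and 16.9% by treat, while 36.0% and 15.9% were higher. The median log2 fold change was -1.47 over the members and 0.06 over all tested genes. All 3 vehicle tumors lay below all 3 normal livers for 9 members, as they did for 35.1% of all genes, and above them for 1 member (Tap1), as for 39.0% of all genes.

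B2m, the class I light chain, and the heavy chain gene H2-K1 were the members most strongly reduced. B2m read 2920, 2560 and 2990 FPKM in normal liver and 601, 372 and 666 FPKM in vehicle tumors. All 3 tumors were far below all livers, with vehicle replicate 2 the lowest. The B2m mean in the tumors was 19.4% of the normal level on the deposited scaling (log2 fold change -2.41, SE 0.28, adjusted p = 1.32e-05). H2-K1 read 782, 693 and 763 FPKM in normal liver and 161, 119 and 167 FPKM with vehicle. The groups were again widely apart (-2.33, SE 0.22, adjusted p = 2.68e-06). H2-D1, the other classical heavy chain of C57BL/6 mice, was less reduced, from 278, 265 and 276 FPKM to 108, 75.8 and 125 FPKM (-1.43, SE 0.32, adjusted p = 0.00179), and did not pass with FPKM rescaled to equal sums in all libraries (-0.24, adjusted p = 0.59). Within a library, where the scaling between libraries cancels, the ratio of H2-K1 to H2-D1 was 2.73 ± 0.10 (SD, n = 3) in normal liver and 1.47 ± 0.12 with vehicle. Reads of these heavy chains and of the H2-Q and H2-T genes can be split between near-identical copies by the counting, so the ratio is uncertain to that extent.

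The peptide-loading members did not move together. Tap2, one subunit of the peptide transporter, read 3.85, 5.85 and 4.33 FPKM in normal liver and 1.67, 0.891 and 1.75 FPKM with vehicle, so that the groups did not overlap (log2 fold change -1.22, SE 0.20, adjusted p = 0.000202). With FPKM rescaled to equal sums in all libraries it did not pass (-0.44, adjusted p = 0.23). Tap1, the other subunit, read 4.34, 4.36 and 3.76 FPKM in normal liver and 4.38, 4.88 and 5.50 FPKM with vehicle. The tumors were thus slightly above the livers, by less than the test resolved (0.20, 95% interval -0.25 to 0.64, adjusted p = 0.40). Tap1 rose past the test only with FPKM rescaled to equal sums in all libraries (1.29, adjusted p = 0.000513). Over the other alternatives tried its adjusted p stayed above the threshold, up to 0.65. The ratio of Tap1 to Tap2 was 0.745 to 1.13 in normal liver and 2.62 to 5.48 with vehicle.
Tapbp, the loading chaperone tapasin, read 29.0, 31.4 and 23.7 FPKM in normal liver and 20, 10.7 and 19.2 FPKM with vehicle. It was lower by the moderated test (-0.76, SE 0.24, adjusted p = 0.0157) but not by treat (adjusted p = 0.53), and its direction turned when FPKM were rescaled to equal sums in all libraries (0.39).

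All 4 class II genes were lower in the tumors on the deposited scaling. None of them passed with FPKM rescaled to equal sums in all libraries, where the log2 fold changes were -0.35 for Cd74, -0.90 for H2-Aa, -0.44 for H2-Ab1 and -0.27 for H2-Eb1 (adjusted p = 0.37, 0.0620, 0.26 and 0.53). H2-Aa read 21.6, 23.7 and 56.4 FPKM in normal liver and 8.42, 3.90 and 10.3 FPKM with vehicle (log2 fold change -1.98, SE 0.36, adjusted p = 0.000420). Normal liver replicate 3 stood above the other livers, yet the lowest liver remained above the highest tumor. H2-Ab1, its beta chain, fell from 19.4, 22.5 and 47.4 FPKM to 8.89, 6.20 and 12.1 FPKM (-1.55, SE 0.30, adjusted p = 0.000678). H2-Eb1 fell from 19.7, 28.9 and 47.7 FPKM to 11.2, 7.21 and 15.6 FPKM (-1.39, SE 0.32, adjusted p = 0.00198). Cd74, the invariant chain, fell from 49.3, 65.4 and 85.8 FPKM to 23.3, 14.4 and 32.4 FPKM (-1.51, SE 0.28, adjusted p = 0.000541). In each gene the livers and tumors did not overlap, and vehicle replicate 2 was the lowest library.

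Several other measures moved with these members. The summed level of 11 macrophage and Kupffer cell markers was 367.6 to 455.2 FPKM in normal liver and 142 to 196 FPKM with vehicle, with 9 of 11 lower and 1 higher (Cd68) by the moderated test. Of 8 dendritic cell markers, 6 were among the genes listed and summed to 2.55 to 4.19 FPKM in normal liver and 1.03 to 1.45 FPKM with vehicle. Of the 3 tested, 2 were lower and 1 higher (Itgax) by the moderated test. The 6 B cell markers summed to 0.977 to 2.77 FPKM in normal liver and 0.387 to 0.880 FPKM with vehicle. The 5 general leukocyte markers summed to 18.2 to 22.4 FPKM in normal liver and 13.8 to 17.8 FPKM with vehicle, and 1 of 5 was lower. On the deposited scaling none of these sums overlapped between livers and vehicle tumors. FPKM over all genes summed to 764004 to 779803 in the livers and 317930 to 346862 with vehicle, so this separation depends on the scaling. The marker sums were not compared with FPKM rescaled to equal sums in all libraries. The 6 endothelial markers summed to 49.8 to 59.7 FPKM in normal liver and 12.9 to 19.0 FPKM with vehicle, and 3 of 6 were lower (Kdr, Stab2 and Clec4g). No listed marker of these types was at 0 in all 3 libraries of a group. Hepatocyte markers were all lower (6 of 6). The part of these cell types in the members' differences was not tested.
The counts rest on the scaling that the deposited FPKM carry, which differs between liver and tumors. With FPKM rescaled to equal sums in all libraries, the median of all genes shifted to 1.00, 0 of the 10 members were called lower by treat, and Tap1 was called higher. With libraries scaled by the median of ratios instead, the median of all genes was 0.03. All 10 members then kept their direction and their moderated call in this comparison. Without normal liver replicate 2, normal liver replicate 3 or vehicle replicate 2, treat called 5, 4 and 3 members in place of 8.

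**Figure D2:**
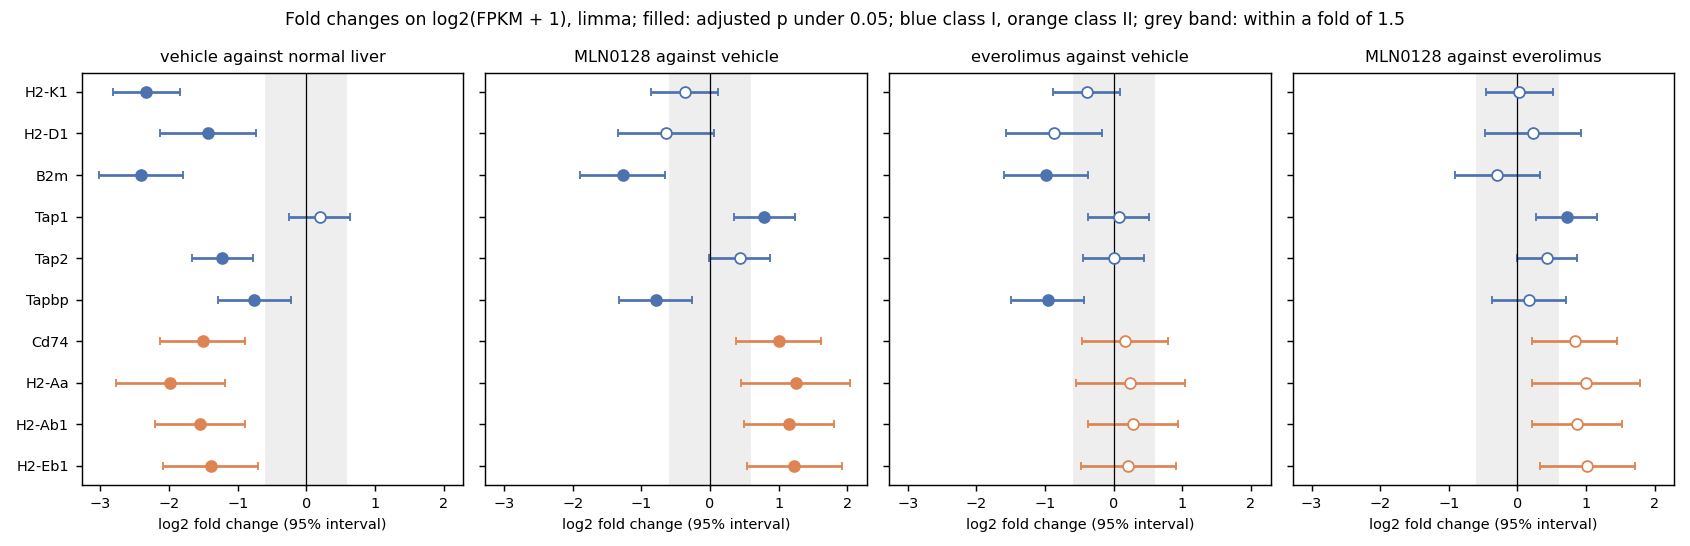
Log2 fold changes of the members on log2(FPKM + 1), with 95% intervals from limma, in the 4 comparisons; filled points have an adjusted p under 0.05 and the grey band marks changes within a fold of 1.5. Against normal liver, 9 members lie to the left and Tap1 near 0, and with rescaling to equal sums in all libraries Tapbp turns to the right; with MLN0128 the class II genes and Tap1 lie to the right and B2m and Tapbp to the left.

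Around the members, 60 further genes of the pathway were listed by role, of which 55 were among the genes listed and 49 were tested. Against normal liver, 28 of the 49 were lower and 8 higher by the moderated test, and 12 and 5 by treat. Over all tested genes, 33.0% were lower and 36.0% higher by the moderated test, and 16.9% and 15.9% by treat. The median log2 fold change of the list was -0.63. With FPKM rescaled to equal sums in all libraries, treat called 5 lower and 12 higher. That scaling moved the median of all genes to 1.00, and the direction of the list differs under it. Changes of its single genes against normal liver are given below on the deposited scaling only. Where they are smaller than that shift, as for H2-DMb1, Jak2 and Irf1, their direction is uncertain.

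Other class I heavy chains were lower in 9 of 11 cases. H2-Q10, a secreted class I molecule typical of liver, read 802, 761 and 711 FPKM in normal liver, similar to H2-K1, and 89.8, 48.1 and 68.3 FPKM with vehicle (log2 fold change -3.49, SE 0.25, adjusted p = 3.67e-07). H2-T23, the nonclassical Qa-1 molecule, fell by 2.66 (SE 0.28, adjusted p = 6.75e-06). Of 5 class I-like genes 4 were lower, led by Cd1d1, which presents lipids (-4.51, SE 0.40, adjusted p = 1.41e-06), and Fcgrt, the heavy chain of the neonatal Fc receptor (-2.59, SE 0.18, adjusted p = 2.25e-07). In the loading group 3 of 5 were lower, led by Erap1, which trims peptides (-1.74, SE 0.11, adjusted p = 1.73e-07), and Tapbpl, the tapasin-related TAPBPR (-0.97, SE 0.14, adjusted p = 8.59e-05).

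The immunoproteasome genes were lower in 4 of 5 cases, with a median of -0.63. Psmb9 starts head to head with Tap1, in the stretch shown above, and read 6.97, 4.86 and 5.66 FPKM in normal liver and 2.46, 1.32 and 2.21 FPKM with vehicle (log2 fold change -1.20, SE 0.20, adjusted p = 0.000227). Psmb8 fell by 1.14 (SE 0.24, adjusted p = 0.00126). The ratio of Tap1 to Psmb9 was 0.623 to 0.897 in normal liver and 1.78 to 3.70 with vehicle, and these ranges did not overlap. In a 3 against 3 comparison an exact permutation test cannot give a two-sided p below 0.1, so no test was made of the ratios.

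Among class II genes outside the members, H2-DMa and H2-DMb1, whose products exchange the peptides on class II molecules, were lower (log2 fold changes -0.88 and -0.69, adjusted p = 0.00221 and 0.0137). In contrast, 4 of 5 genes for endosomal proteins that process class II peptides or the invariant chain were higher, led by Ifi30 (1.79, SE 0.22, adjusted p = 2.26e-05), a thiol reductase, and Ctsl (1.60, SE 0.15, adjusted p = 1.90e-06), cathepsin L. Of the 4 transactivator genes tested, Nlrc5, which drives class I genes, was lower (-0.82, SE 0.19, adjusted p = 0.00223), and Rfx5, a subunit of the RFX complex that binds MHC promoters, was higher (1.204, SE 0.19, adjusted p = 0.000120). Ciita, the class II transactivator, did not pass the filter and read 0.233 to 0.412 FPKM in normal liver and 0.0298 to 0.171 FPKM with vehicle, on 24 to 41 and 6 to 38 reads.

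In the interferon-gamma axis 4 of 8 tested genes were lower and 1 higher. Irf1, an interferon-induced transcription factor, was lower by 0.35 on the deposited scaling (SE 0.13, adjusted p = 0.0298). Irf2 changed by -1.04 (SE 0.13, adjusted p = 1.87e-05), Jak2 -0.77 (SE 0.18, adjusted p = 0.00265), and the receptor chain Ifngr1 was higher (0.51, SE 0.12, adjusted p = 0.00285). Of 4 costimulation genes, Icosl (0.81, SE 0.18, adjusted p = 0.00192) and Cd80 (0.72, SE 0.28, adjusted p = 0.0359) were higher and Cd86 was lower (-0.69, SE 0.15, adjusted p = 0.00155). Their levels were near the filter of 0.5 FPKM. Icosl read 0.201 to 0.294 FPKM and Cd80 0.0501 to 0.311 FPKM in normal liver, and Cd86 0.35 to 0.663 FPKM with vehicle. Cd80 and Cd86 are ligands of the T cell receptor CD28, and Icosl is the ligand of ICOS.

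**Figure D3:**
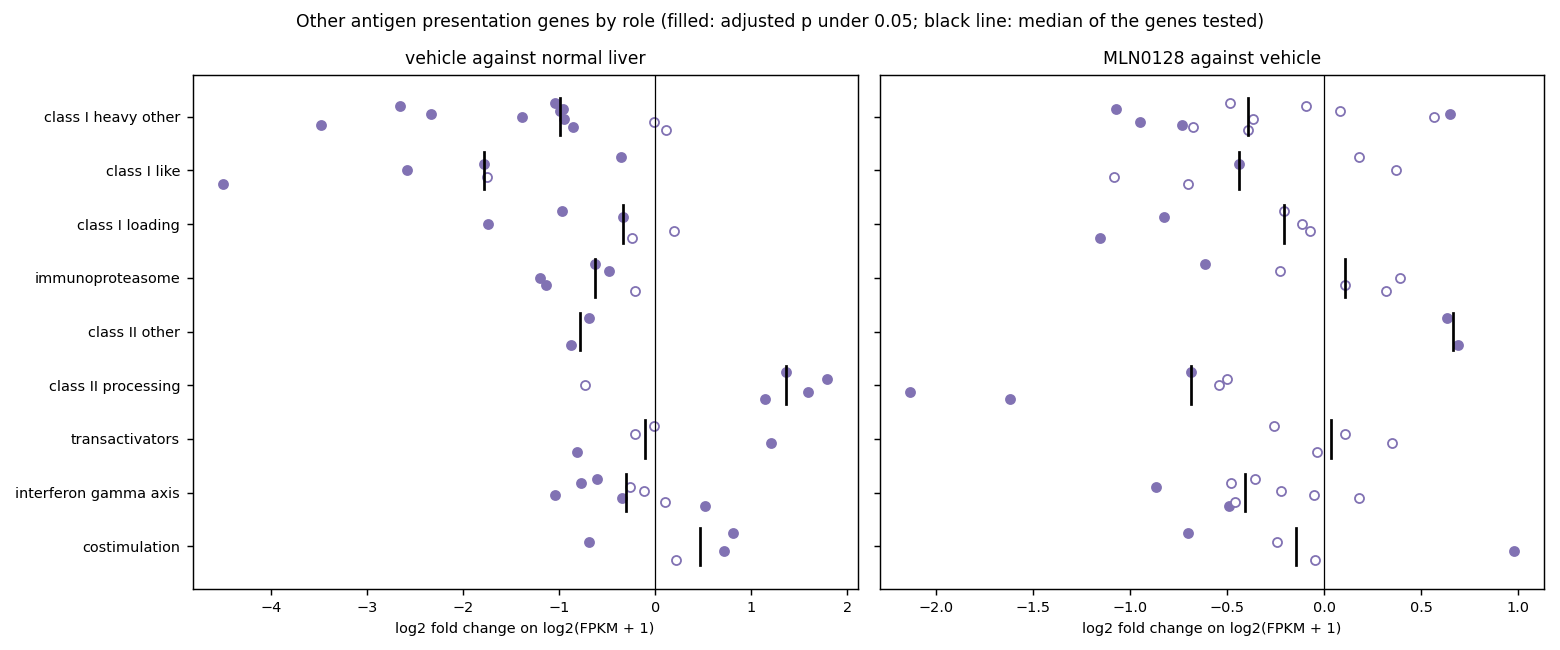
Log2 fold changes of the 49 tested pathway genes outside the members, by role, for vehicle against normal liver and for MLN0128 against vehicle; filled points have an adjusted p under 0.05 and black lines are medians. Most class I groups lie below 0 against normal liver on the deposited scaling (with rescaling to equal sums in all libraries 12 genes of the list are called higher and 5 lower), 4 of the 5 class II processing genes (all but Ctss) lie above 0 there, and all 5 lie below 0 with MLN0128.

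The second comparison asked what MLN0128 changed in these tumors. The 4 class II genes and Tap1 were higher than with vehicle and B2m and Tapbp were lower by the moderated test, 5 of 10 members higher and 2 lower, against 14.9% and 17.1% of all genes. By treat, limma called 0 members higher and 0 lower, against 0.479% and 1.65% of all genes. At an unadjusted p under 0.05 the moderated test gave the same 5 and 2, and voom on the recovered reads called 0 with treat and again 5 higher and 2 lower without the fold limit. All MLN0128 libraries lay above all vehicle libraries for 6 members and below for 3 (22.1% and 23.4% of all genes).

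H2-Aa read 16.4, 16.3 and 22.1 FPKM with MLN0128 and 8.42, 3.90 and 10.3 FPKM with vehicle (log2 fold change 1.25, SE 0.36, adjusted p = 0.0214). H2-Ab1 read 18.9, 17.9 and 25.9 against 8.89, 6.20 and 12.1 FPKM (1.15, SE 0.30, adjusted p = 0.0134). H2-Eb1 read 27.8, 21.8 and 31.4 against 11.2, 7.21 and 15.6 FPKM (1.23, SE 0.32, adjusted p = 0.0124). In all 3 chains the lowest MLN0128 tumor was above the highest vehicle tumor. Cd74 read 46.2, 36.2 and 55.8 against 23.3, 14.4 and 32.4 FPKM (1.00, SE 0.28, adjusted p = 0.0201) and did not overlap either. On the deposited scaling these levels were 53.9% (H2-Aa), 70.2% (H2-Ab1), 84.1% (H2-Eb1) and 68.9% (Cd74) of the normal liver mean. FPKM over all genes summed to 252679 to 330927 with MLN0128 and 764004 to 779803 in the livers. Whether class II stayed below normal liver therefore depends on the scaling and was not tested.
The 4 genes were close to each other in every library: over the 12 libraries the log2 values of any pair of class II members correlated with r from 0.96 to 0.99 (6 pairs), and over the 9 tumors from 0.97 to 0.99. These points share the library and its group, and the values are descriptions. With only MLN0128 replicate 3, the library without Xist RNA, the log2 fold changes were 1.29 to 1.52, and the adjusted p ran from 0.0590 to 0.0951. Without vehicle replicate 2, the lowest library, Cd74 (0.70, adjusted p = 0.0704), H2-Aa (0.89, adjusted p = 0.0761) and H2-Ab1 (0.93, adjusted p = 0.0507) no longer passed. Cd74 also missed it without MLN0128 replicate 1 or 3 (adjusted p = 0.0603 and 0.0598) and H2-Aa without replicate 3 (0.0593). Over all alternatives the adjusted p ran from 0.00295 to 0.0951 across the 4 genes and the log2 fold change from 0.70 to 1.56.

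Markers of the cells that make class II did not all move this way. The 11 macrophage markers summed to 55.5 to 89.5 FPKM with MLN0128 against 142 to 196 with vehicle, and 5 of 11 were lower and 0 higher by the moderated test. The 5 leukocyte markers summed to 8.52 to 20.2 FPKM against 13.8 to 17.8, with 0 of 5 changed. The dendritic cell markers summed to 1.72 to 2.24 FPKM against 1.03 to 1.45, without overlap, although none of the 3 tested passed. The B cell markers summed to 0.339 to 1.45 FPKM against 0.387 to 0.880, and the T and NK cell markers to 1.01 to 2.11 against 0.875 to 1.74. The part of these cells was not tested. Relative to Ptprc (CD45), the summed class II chains were 86.8 to 107 with MLN0128 and 37.5 to 64.8 with vehicle. Ciita read 0.389 to 0.469 FPKM with MLN0128, on 79 to 107 reads, above all vehicle tumors. H2-DMa (0.69, SE 0.20, adjusted p = 0.0235) and H2-DMb1 (0.63, SE 0.22, adjusted p = 0.0442) were higher as well.

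Class I members went apart with MLN0128. Tap1 read 10.4, 9.06 and 8.31 FPKM, above all vehicle tumors (4.38, 4.88 and 5.50 FPKM) and above all normal livers (log2 fold change against vehicle 0.79, SE 0.20, adjusted p = 0.0122). Without the Xist-bearing libraries it was 0.66 (adjusted p = 0.18), and without MLN0128 replicate 1 it was 0.71 (adjusted p = 0.0522). Over the alternatives tried the adjusted p ran from 0.00220 to 0.18. Tap2 was higher in all 3 libraries, at 2.09, 2.01 and 2.66 FPKM, but did not pass (0.43, 95% interval -0.01 to 0.87, adjusted p = 0.12). Psmb9 read 2.89, 2.82 and 2.91 FPKM (0.39, SE 0.20, adjusted p = 0.16), and the ratio of Tap1 to Psmb9, at 2.86 to 3.599, overlapped that of vehicle tumors.

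B2m read 211, 236 and 210 FPKM with MLN0128 against 601, 372 and 666 FPKM with vehicle, with no overlap (log2 fold change -1.27, SE 0.28, adjusted p = 0.00573). This left 7.76% of the normal liver mean on the deposited scaling. With only replicate 3 the change was -1.33 (adjusted p = 0.0689, over the alternatives 0.00161 to 0.0689). H2-K1 (109, 115 and 118 FPKM) and H2-D1 (60.8, 59.9 and 73.0 FPKM) lay below all vehicle tumors, but their log2 fold changes of -0.37 and -0.64 did not pass (adjusted p = 0.23 and 0.15). H2-D1 passed without everolimus replicate 2, which enters only the shared spread (adjusted p = 0.0151). Per heavy chain RNA, B2m was 2.77 ± 0.10 (SD, n = 3) in normal liver, 2.14 ± 0.20 with vehicle and 1.23 ± 0.13 with MLN0128. These 3 ranges did not overlap. Tapbp read 8, 8.04 and 10.7 FPKM, with 1 library at the level of vehicle replicate 2 (-0.79, SE 0.24, adjusted p = 0.0280). This call was lost without vehicle replicate 1 or 3, without MLN0128 replicate 1 or 2, without the Xist-bearing libraries and with FPKM rescaled to equal sums in all libraries (adjusted p from 0.0746 to 0.35 in these), and in 2 further alternatives with adjusted p of 0.0511 and 0.0534.

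**Figure D4:**
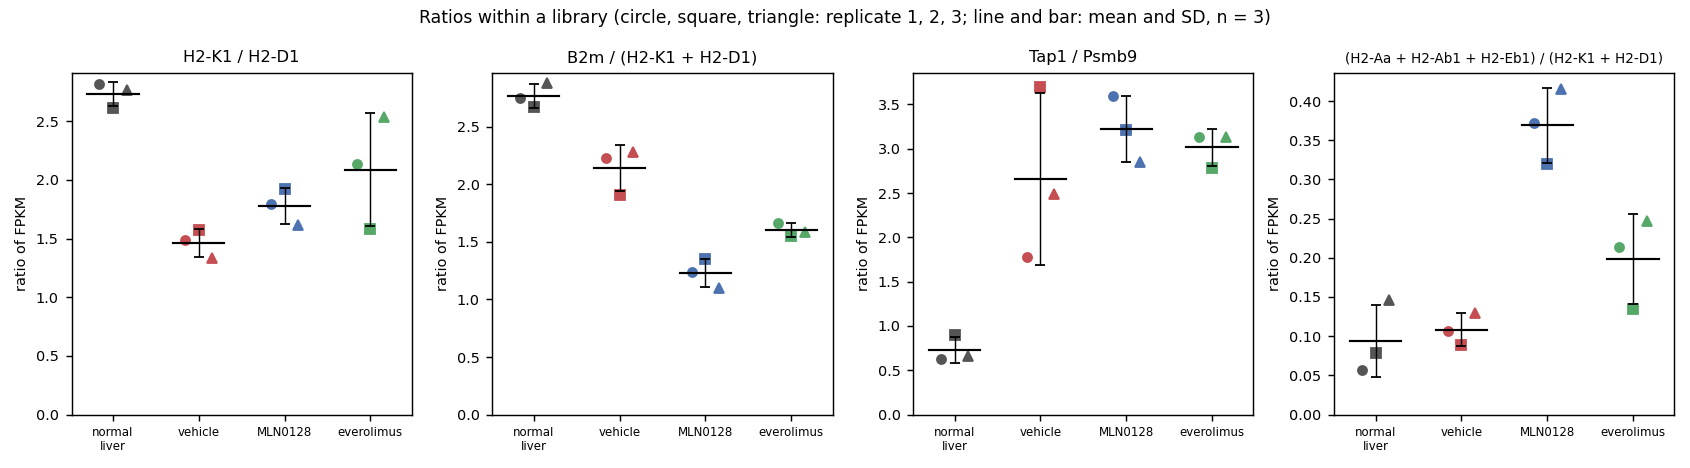
Ratios of FPKM within each library, which do not depend on the scaling between libraries; symbols are replicates 1 to 3, and lines and bars the mean and SD (n = 3). B2m per heavy chain RNA steps down from normal liver (2.67 to 2.88) to vehicle (1.91 to 2.28), everolimus (1.55 to 1.67) and MLN0128 (1.10 to 1.35), and Tap1 per Psmb9 is higher in all 9 tumors than in normal liver.

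In the wider list MLN0128 gave 4 higher and 13 lower genes of 49 by the moderated test, and 0 higher and 2 lower by treat. The shares of all tested genes were 14.9% and 17.1% by the moderated test, and 0.479% and 1.65% by treat. At an unadjusted p under 0.05 the list had 5 and 17, and voom with treat gave 0 and 3. Those past treat were the lysosomal proteases Ctsl, cathepsin L, at 69.6, 86.2 and 89.1 FPKM with MLN0128 against 346, 358 and 377 FPKM with vehicle (log2 fold change -2.14, SE 0.15, adjusted p = 1.03e-05), and Ctsb, cathepsin B (-1.62, SE 0.16, adjusted p = 9.04e-05). Both were also lower than in vehicle tumors with everolimus, given below. Without the Xist-bearing libraries treat called 1 of the list lower. Calr (-1.15, SE 0.18, adjusted p = 0.00101) and Pdia3 (-0.83, SE 0.13, adjusted p = 0.000932), chaperones of the class I loading complex that serve all glycoproteins, were lower. H2-T22 (-1.07, SE 0.30, adjusted p = 0.0176) and H2-Q2 (-0.95, SE 0.19, adjusted p = 0.00334), nonclassical class I genes, and Hfe, the class I-like iron regulator (-0.44, SE 0.13, adjusted p = 0.0269), were lower, and H2-Q7 was higher (0.65, SE 0.20, adjusted p = 0.0281). H2-Q2 is a low gene, at 0.0646 to 0.129 FPKM with MLN0128 and 0.478 to 1.91 FPKM with vehicle. Psme2, a subunit of the PA28 activator, was lower (-0.62, SE 0.18, adjusted p = 0.0253). Jak1 (-0.87, SE 0.14, adjusted p = 0.00116) and Ifngr1 (-0.49, SE 0.12, adjusted p = 0.0112) were the lower genes of the interferon-gamma axis. Irf1 (0.18, adjusted p = 0.32), Nlrc5 (-0.04, adjusted p = 0.90) and Psmb8 (0.11, adjusted p = 0.77) did not pass. Cd80 was higher (0.98, SE 0.28, adjusted p = 0.0189) and Icosl lower (-0.70, SE 0.18, adjusted p = 0.0133).

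The third comparison set everolimus against vehicle, with the same 3 vehicle libraries as the second. B2m and Tapbp were lower by the moderated test, 0 of 10 members were higher and 2 lower, against 3.78% and 6.05% of all genes. Treat called 0 members in either direction, against 0.0347% higher and 0.570% lower of all genes, as did voom with treat. At an unadjusted p under 0.05 the moderated test gave 0 higher and 3 lower. No member separated the 3 everolimus libraries from the 3 vehicle libraries, whereas 17.6% of all genes did so upward and 14.8% downward.

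Everolimus replicate 2 was the highest of its group in every class I member but Tap1. B2m read 206, 421 and 221 FPKM (log2 fold change -0.98, SE 0.28, adjusted p = 0.0485, over the alternatives 0.00753 to 0.18), with replicate 2 inside the range of the vehicle tumors. The call was lost under 16 of the 21 alternatives, among them without vehicle replicate 1 or 3 and without everolimus replicate 1 or 3. H2-K1 read 84.2, 166 and 99.8 FPKM (-0.40, adjusted p = 0.28) and H2-D1 39.4, 105 and 39.3 FPKM (-0.87, SE 0.32, adjusted p = 0.11). Without replicate 2 both passed, H2-K1 at -0.68 (adjusted p = 0.0277, over the alternatives up to 0.68) and H2-D1 at -1.34 (adjusted p = 0.00250, over the alternatives up to 0.33). The same library held more Alb (4860 FPKM against 851 and 1320), Clec4f (26.2 against 5.96 and 6.66) and Cd5l (63.1 against 20.6 and 21.6) than the other everolimus tumors. Alb is a hepatocyte product, and Clec4f and Cd5l are Kupffer cell markers. The hepatocyte markers did not all follow Alb. Ttr, Apoa1 and Cyp2e1 were also highest in replicate 2. Cps1 was not (328 FPKM against 448 and 305), and Hnf4a was level with replicate 3 (91.6 and 91.3 FPKM). The part of these cell types in the class I values was not tested.

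Tapbp read 5.86, 10.7 and 7.34 FPKM with everolimus (log2 fold change -0.96, SE 0.24, adjusted p = 0.0315), and the highest of these was at the level of the lowest vehicle tumor. It did not pass without vehicle replicate 1 or 3 or everolimus replicate 1 or 3, nor under 3 other alternatives (adjusted p = 0.0614 to 0.13). Tap1 at 7.52, 5.53 and 3.29 FPKM ranged from above to below all vehicle tumors (0.07, 95% interval -0.37 to 0.52, adjusted p = 0.86). Tap2 read 1.16, 2.14 and 1.05 FPKM (0.00, 95% interval -0.44 to 0.44).
The class II genes were within the range of vehicle tumors or slightly above. Cd74 read 19.8, 28.9 and 27.4 FPKM (0.17, 95% interval -0.46 to 0.79, adjusted p = 0.76), H2-Aa 6.84, 9.66 and 9.36 (0.24, 95% interval -0.54 to 1.03), H2-Ab1 9.77, 11.3 and 11.7 (0.28, 95% interval -0.37 to 0.94) and H2-Eb1 9.84, 15.7 and 13.2 FPKM (0.21, 95% interval -0.48 to 0.90). The intervals hold differences of either sign, and 3 of the 4 (all but H2-Ab1) turned below 0 without vehicle replicate 2. Ciita read 0.178 to 0.307 FPKM on 32 to 79 reads, above the vehicle range.

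In the wider list everolimus gave 1 higher and 6 lower genes of 49 by the moderated test, and 0 higher and 1 lower by treat (voom with treat: 0 and 2). Of all tested genes, 3.78% were higher and 6.05% lower by the moderated test, and 0.0347% and 0.570% by treat. Ctsl was lower (log2 fold change -1.34, SE 0.15, adjusted p = 0.000340) and so was Ctsb (-1.09, SE 0.16, adjusted p = 0.00222). The call of Ctsl by treat was lost without vehicle replicate 1 or 3 and without everolimus replicate 1 or 2. H2-Q2 (-0.97, SE 0.19, adjusted p = 0.00940), H2-T24 (-0.64, SE 0.19, adjusted p = 0.0494), Hfe (-0.52, SE 0.13, adjusted p = 0.0343) and Jak1 (-0.50, SE 0.14, adjusted p = 0.0447) were the others, and the proteasome subunit Psmb10 was higher (0.60, SE 0.16, adjusted p = 0.0427). H2-Q2 read only 0.0368 to 0.151 FPKM with everolimus. Psmb8 (-0.22), Psmb9 (-0.10), Nlrc5 (-0.19) and Irf1 (0.27) did not pass, with adjusted p of 0.61, 0.80, 0.56 and 0.20.

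The fourth comparison set MLN0128 directly against everolimus at the same labelled dose and time, with the doubt on the length of treatment given above. Of the 10 members, Tap1 was higher with MLN0128 by the moderated test and 0 were lower, against 3.99% and 5.54% of all genes. Treat called 0 in either direction, against 0.00695% and 0.0347% of all genes, and so did voom with treat. At an unadjusted p under 0.05 the moderated test gave 5 higher and 0 lower, and voom gave 2 higher at an adjusted p under 0.05. All MLN0128 libraries lay above all everolimus libraries for 5 members (Tap1, Cd74, H2-Aa, H2-Ab1 and H2-Eb1) and below for 0, against 12.5% and 15.2% of all genes.
Tap1 was higher by 0.72 on the log2 scale (SE 0.20, adjusted p = 0.0473, over the alternatives 0.0260 to 0.33). The 4 class II genes were higher by 0.83 (Cd74, 95% interval 0.21 to 1.46, adjusted p = 0.0873), 1.00 (H2-Aa, 0.21 to 1.79, adjusted p = 0.10), 0.86 (H2-Ab1, 0.21 to 1.52, adjusted p = 0.0918) and 1.02 (H2-Eb1, 0.33 to 1.71, adjusted p = 0.0653), which did not pass over all genes. Without normal liver replicate 3, H2-Aa (adjusted p = 0.0468), H2-Ab1 (0.0325) and H2-Eb1 (0.0409) passed, as did H2-Eb1 with rescaling to equal sums (0.0496) and with voom (0.0459), and H2-Ab1 with the replicate number as a block (0.0455). In this comparison their fold changes lay at the 98.6 to 99.3 percentile of all tested genes. With only MLN0128 replicate 3 these differences were 1.13 to 1.28, with adjusted p of 0.18 to 0.25.
H2-K1 (0.03, 95% interval -0.46 to 0.51), H2-D1 (0.23, -0.47 to 0.93), B2m (-0.29, -0.91 to 0.32), Tap2 (0.43, -0.01 to 0.87) and Tapbp (0.17, -0.37 to 0.70) did not pass, and these intervals leave room for differences of either sign. Without everolimus replicate 2, H2-D1 passed (0.69, adjusted p = 0.0420).

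**Figure D5:**
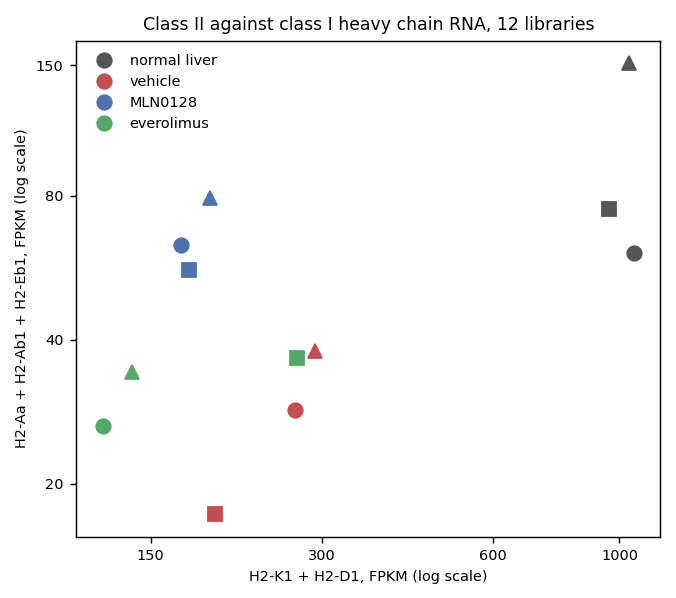
Summed FPKM of the class II chains H2-Aa, H2-Ab1 and H2-Eb1 against that of the class I heavy chains H2-K1 and H2-D1 in the 12 libraries, on log axes. The MLN0128 tumors combine heavy chain sums of 169.8 to 191 FPKM with class II sums of 56.0 to 79.4 FPKM, above the 26.4 to 36.7 FPKM of everolimus and the 17.3 to 38.0 FPKM of vehicle tumors.

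In the wider list MLN0128 was above everolimus in 2 of 49 genes, H2-Q6 (0.79, SE 0.21, adjusted p = 0.0418) and Mr1 (0.39, SE 0.11, adjusted p = 0.0472), which presents vitamin metabolites. It was below in 3, Calr (-0.80, SE 0.18, adjusted p = 0.0240), Pdia3 (-0.70, SE 0.13, adjusted p = 0.0122) and Ctsl (-0.79, SE 0.15, adjusted p = 0.0118). Over all tested genes 3.99% were higher and 5.54% lower with MLN0128, so both counts are near the shares of all genes. Mr1 is a low gene, at 0.494 to 0.769 FPKM with MLN0128 and 0.159 to 0.442 FPKM with everolimus. Treat called 0 in either direction, as did voom with treat, and at an unadjusted p under 0.05 there were 6 higher and 8 lower. Psmb9 (0.49, adjusted p = 0.14), Psmb8 (0.33, adjusted p = 0.43), Nlrc5 (0.15, adjusted p = 0.66) and Irf1 (-0.09, adjusted p = 0.70) did not pass.

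Put together as a balance, the class II chains amounted to 0.0573 to 0.146 of the heavy chain RNA in the livers. In vehicle tumors it was 0.0889 to 0.130, in MLN0128 tumors 0.320 to 0.416 and in everolimus tumors 0.135 to 0.246. Every MLN0128 library was above every other library in this ratio. Relative to heavy chain RNA, Tap1 was 0.00362 to 0.00455 in the livers and 0.0163 to 0.0612 across the 9 tumors.
Within class I, pairs without Tap1 correlated over the 12 libraries with r from 0.75 to 0.98 (10 pairs, median 0.91), while the 5 pairs with Tap1 ran from -0.61 to -0.16. Over the 9 tumors alone the former spread from -0.03 to 0.96 and the latter from -0.49 to 0.59. Pairs of a class I with a class II member had a median r of 0.53 over 12 libraries and 0.02 over the tumors (24 pairs).

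The genes outside the members whose log2 profile over the 12 libraries was most like the mean class I profile were Dusp22 (r = 0.98), Bcl9l (0.98), Spsb2 (0.98), Asah2 (0.98) and Ghdc (0.98). For class II they were Kazald1 (r = 0.96), H2-DMa (0.95), Wdr5b (0.93), Snx14 (0.93) and Tbc1d32 (0.92). Kazald1 averaged 1.19 FPKM in normal liver, 0.134 with vehicle, 0.769 with MLN0128 and 0.202 with everolimus. H2-DMa averaged 2.60, 0.961, 2.16 and 1.29 FPKM in the same order. These are likenesses over libraries that share groups, depth and composition, and genes were ranked out of 14387.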

How the data were processed

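RNA of 12 libraries in 4 groups of 3 was analysed. The authors sent RNA to Novogene for sequencing, assigned reads to Ensembl genes, and deposited FPKM, rounded to 3 significant digits, with symbols from org.Mm.eg.db. The submitters' processing notes name GRCm38 and FastQC 0.11.7. The aligner is not given in the sources used here. A count test was not the main test because FPKM are not counts. The members and lists were chosen with earlier results of these data known.

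The 14397 genes reaching 0.5 FPKM in 3 or more libraries were fitted as log2(FPKM + 1) with limma 3.58.1 in R 4.3.3, all groups in 1 model with an intensity trend. Fold changes are on that scale and understate those of low genes. Calls used treat against a fold change of 1.5, and single genes the moderated test, both with Benjamini-Hochberg adjusted p under 0.05 over all tested genes. A share of genes with separate groups compares FPKM ranges. Named genes outside the members were Psmb8, Psmb9, Nlrc5, Ciita and Irf1 (1 further gene is not reported here), and up to 2 higher and 2 lower per list and comparison by size among those with adjusted p under 0.05. Alb, Ttr, Apoa1, Cyp2e1, Cps1, Hnf4a, Clec4f, Cd5l, Ptprc, Cd68, Itgax, Kdr, Stab2 and Clec4g were named after their values were seen.

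Whole reads were recovered from FPKM and GENCODE M21 exon lengths (16864 symbols found) and used with voom as 1 of 22 alternatives. 22 symbols had been turned into dates. The fits were tested on simulated data. Tables were handled with pandas 2.3.3, figures with matplotlib 3.10.9. The libraries were taken as separate mice from the study's count of 3 per group, which the titles do not state. Replicate numbers did not pair them.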

Additional observations from a re-analysis of the deposited data

Results flagged for a closer look

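Tap1, which encodes a subunit of the peptide transporter, was flagged because the effects of MLN0128 and everolimus on it differed by the direct test between the drugs. It was higher with MLN0128 by 0.72 on the log2 scale (SE 0.20, limma's moderated test, adjusted p = 0.0473), in 3 of 3 libraries above all everolimus libraries. Under 16 of the 21 alternatives tried for this gene it no longer passed (log2 fold change 0.45 to 1.04, adjusted p 0.0260 to 0.33), among them the fit with MLN0128 replicate 3 only, the library without Xist RNA (0.59, adjusted p = 0.33). The part of the other 2 MLN0128 libraries in the difference was not tested. The everolimus libraries ranged from 3.29 to 7.52 FPKM.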

How the results depend on the processing

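Depth limits Ciita and Tap2, and 3 libraries a group limit all tests. Over 840 alternative values of the members, 746 kept direction and side of the threshold, 68 lost and 11 gained the call, and 15 reversed. The cause was not tested in any of these. Leaving out a library outside the 2 groups compared cannot change a fold change, so direction was fixed in advance there. The fits without trend, without filter, with a replicate block or with only the 2 groups compared also left fold changes as they were. With FPKM rescaled to equal sums in all libraries, treat called 1 member higher and 0 lower in vehicle tumors against normal liver, and 12 and 5 of the wider list. Tapbp turned to 0.39 there, and Tap2 with everolimus to -0.0035 (-0.0046 with median of ratios). Leaving out single libraries gave 3 to 8 members lower against normal liver and 0 to 1 wider genes lower with everolimus. When calls needed an adjusted p under 0.05 and a fitted fold over 1.5, members called were 5 higher and 2 lower with MLN0128, 2 lower with everolimus, and 1 higher with MLN0128 against everolimus. Wider genes called were then 24 lower against normal liver, 4 higher and 11 lower with MLN0128, 1 higher and 4 lower with everolimus, and 1 higher and 3 lower between the drugs. Wider genes lower with everolimus were 2 with a pseudocount of 0.1, 2 with voom and 0 with only the 2 groups compared, and 1 was lower with MLN0128 without the Xist-bearing libraries.

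Small log2 fold changes reversed in fits that left out 1 library, and their lowest and highest values over these fits follow. Between MLN0128 and everolimus, H2-K1 ran from -0.17 (without everolimus replicate 1) to 0.31 and was -0.05 without replicate 3. H2-D1 ran from -0.0030 (without replicate 3; -0.0012 without replicate 1) to 0.69, B2m from -0.48 to 0.035 (without replicate 2) and Tapbp from -0.0060 (without replicate 1) to 0.38. For everolimus against vehicle, Tap1 ran from -0.16 (without everolimus replicate 1) to 0.34 and Tap2 from -0.19 (without replicate 2; -0.17 without vehicle replicate 2) to 0.12. Without vehicle replicate 2 came the lowest values of Cd74 (-0.13 to 0.43), H2-Aa (-0.11 to 0.49) and H2-Eb1 (-0.055 to 0.45).

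Same-numbered libraries did not deviate together (18 pairs, r -0.29 to 0.15, 1 over 0.1), so the numbers were not taken as pairs. With the replicate number as a block, B2m (-0.98, adjusted p = 0.0874) and Tapbp (-0.96, adjusted p = 0.0614) with everolimus, Tapbp with MLN0128 (-0.79, adjusted p = 0.0511) and Tap1 between the drugs (0.72, adjusted p = 0.0610) lost the call, and H2-Ab1 between the drugs (0.86, adjusted p = 0.0455) gained it.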
